A study of Mus musculus with 2 samples.

Results

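The lymphotoxin pathway and the high endothelial venule (HEV) program were followed through 10 genes, of 32285 in the count tables. These were the receptor *Ltbr*, its ligand genes *Lta* and *Ltb*, the vascular addressin *Madcam1*, the sulfated mucin *Glycam1*, the carbohydrate enzymes *Chst4* and *Fut7*, and the chemokines *Ccl21a*, *Ccl19* and *Cxcl13*. They were listed by name and not by a rule on measured values, although earlier results of these data were known. The aim was to describe where each was detected and whether venous endothelial cells carried HEV features. Single-cell RNA-seq (10x Genomics, GEM-X 3′ chemistry) was done on cells sorted as live CD31+CD45- from YUMMER1.7 tumors, grown from a mouse melanoma line with a high mutation load. The Control library and the Dnmt1iECKO library each pooled the tumors of 3 female mice aged 8 to 10 weeks, so there was 1 library per condition. Dnmt1iECKO mice carried Cdh5CreERT2, Dnmt1fl/fl and a ZsGreen reporter allele behind a loxP-flanked stop. Tamoxifen then deleted *Dnmt1*, the maintenance DNA methyltransferase, in Cdh5-expressing cells of the whole animal, lymphatic endothelium included. The sample labels give the Control genotype as C57BL/6, whereas the methods of the study describe control mice with the same Cre driver and reporter. The labels describe subcutaneous tumors and the methods describe lung tumors after tail vein injection, and lung alveolar epithelial cells were present in both libraries. Whether the endothelial cells came from tumor vessels or from lung around the tumors was not tested.

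Lymphotoxin made by lymphocytes is a membrane heterotrimer of the products of *Lta* and *Ltb*, and it signals through the lymphotoxin beta receptor to the non-canonical NF-kB arm in endothelial and stromal cells. In lymph nodes this signal maintains HEVs, the venules through which naive lymphocytes enter. HEVs display sulfated and fucosylated glycans on scaffolds such as GlyCAM-1, and in mucosal tissue MAdCAM-1, which the integrin alpha4beta7 binds. CCL21 and CCL19 attract cells with CCR7, and CXCL13 attracts B cells with CXCR5.

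Cells were given a class from their transcripts. The files held 9301 Control and 9522 Dnmt1iECKO cells with a median of 8904 and 8762 UMIs, and 7764 and 7839 cells passed the filters. Endothelial cells (ECs) had at least 1 UMI of *Cdh5* or *Pecam1*, no UMI of the leukocyte gene *Ptprc*, and no other lineage with a larger share of its markers detected. The lineage step took out 264 and 195 cells and left 5268 Control and 2208 Dnmt1iECKO ECs, with a median of 8 of 8 endothelial markers per cell in both libraries. ECs with any UMI of *Slc6a2*, *Selp* or *Ackr1* were called venous, 445 in Control and 342 in Dnmt1iECKO, and those 3 genes are therefore no result in that class. Of these venous cells, 148 and 67 rested on exactly 1 UMI of the 3 genes. A UMI of the platelet genes *Ppbp* or *Pf4* was in 58 and 34 of them, and platelets also express *Selp*. ECs with *Prox1* and at least 1 more lymphatic marker, 124 and 73 cells, held a median of 3 of 5 lymphatic markers but also 4.5 and 5 general capillary markers, so only the 38 and 16 cells with at least 4 of 5 lymphatic markers are called lymphatic ECs below. The rest of that wider class counted among all ECs, but in neither the venous nor the other blood ECs. Of the wider class, 25 and 23 cells held a venous gene. Other classes, including 376 and 578 fibroblasts, 355 and 1624 T cells and 204 and 691 B cells, needed at least 3 of their markers. *Ptprc* was detected in 17.2% of filtered Control cells and 57.5% of filtered Dnmt1iECKO cells although the sort was CD45-, and 23 barcodes were shared between the filtered libraries. *Dnmt1* itself was 51.8 CPM (UMIs scaled to the total UMIs of the class) in Control ECs and 31.4 CPM in Dnmt1iECKO ECs, a log2 ratio of -0.72 (95% interval -0.83 to -0.62). In T cells, where the Cre driver should not act, its log2 ratio was 0.71.

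A level here is the sum of a gene's UMIs over the cells of a class, as CPM of all UMIs of that class, and a log2 ratio compares 2 such levels. Intervals are exact Poisson intervals for levels and ratios and Clopper-Pearson intervals for shares of cells. For a count of 0, the limit given is the share or level that 3 counts would make. They cover counting error only, and with 1 library per condition no difference between conditions has a replicate check. Levels are compared between classes for 1 gene at a time.

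The plot of all members by class gives the main pattern. *Ltbr* was broad over endothelium, stroma and myeloid cells, while *Ltb* and *Lta* were in lymphocytes. *Ccl21a* was in lymphatic ECs, *Ccl19* in fibroblasts and mural cells, and *Cxcl13* in a few fibroblasts and macrophages. *Madcam1*, *Glycam1*, *Chst4* and *Fut7* were at few UMIs in ECs, venous ECs included.

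**Figure D1:**
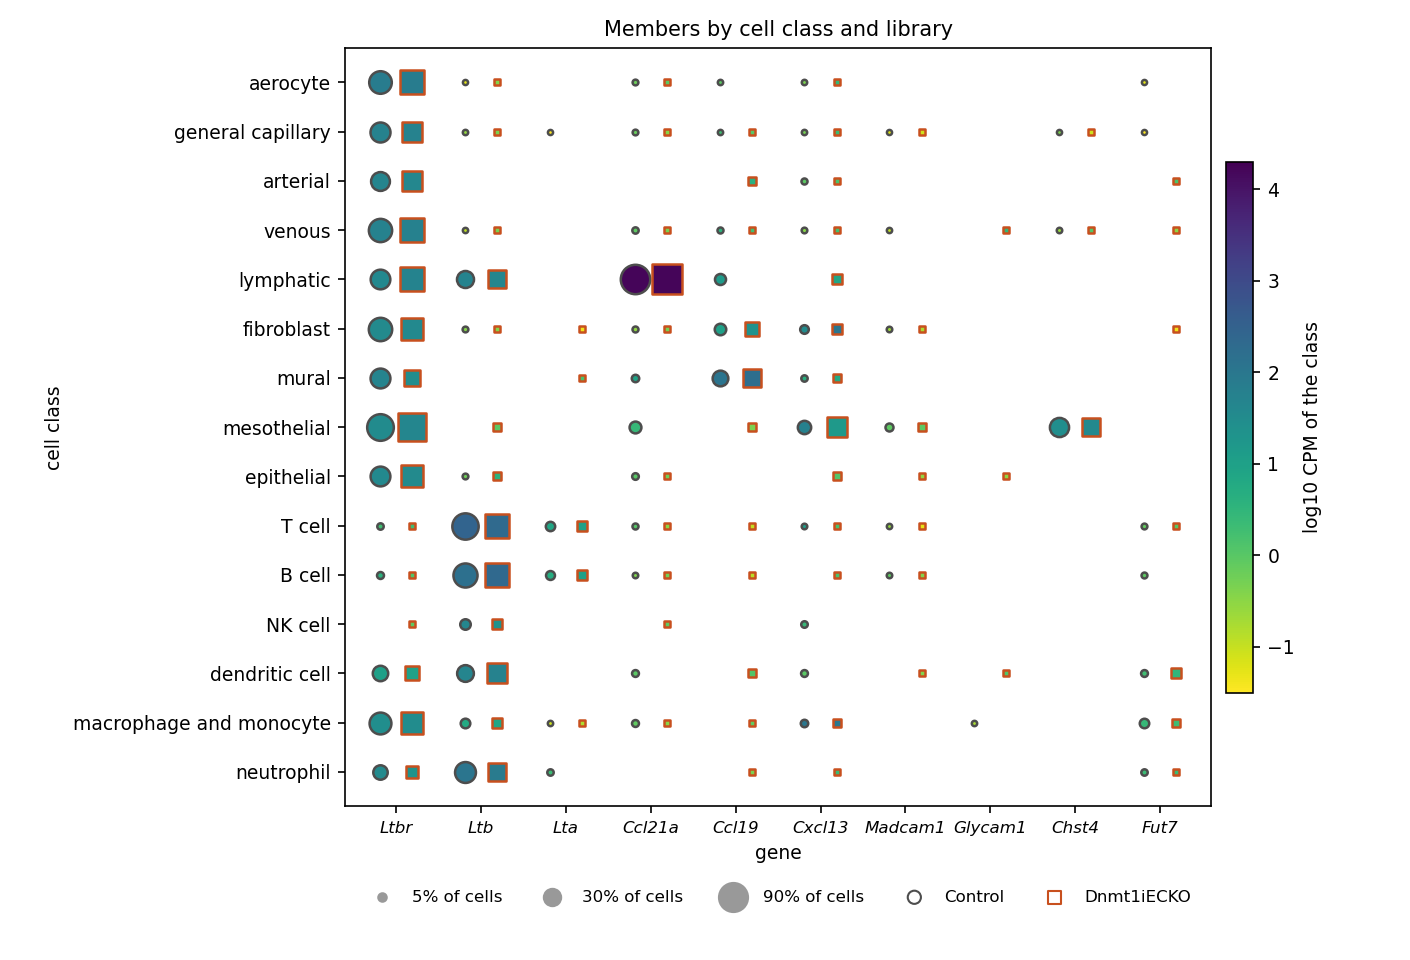
Members by cell class and library. Columns are the 10 genes and rows are cell classes; the area of a symbol gives the percent of cells of the class with at least 1 UMI, its colour gives log10 CPM of the class, circles are Control, squares are Dnmt1iECKO, and no symbol means 0 UMIs. *Ltbr* has symbols in nearly every row, *Ccl21a* has its large symbols in the lymphatic row (92.1% and 93.8% of cells), and the 4 columns at the right are nearly empty outside *Chst4* in mesothelial cells.

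*Ltbr* (GRCm38 chr6:125306571-125313885, minus strand) had 4077 UMIs in Control ECs and 1813 in Dnmt1iECKO ECs, in 44.8% and 45.9% of cells. Control ECs held 61.5 CPM (interval 59.6 to 63.4) and Dnmt1iECKO ECs 57.6 CPM (interval 54.9 to 60.3). On the log2 scale Dnmt1iECKO over Control was -0.09 (-0.18 to -0.01), a small difference whose interval ended just below 0. The interval reached or held 0, with upper ends of 0.00 to 0.03, when at most 5% mitochondrial counts were allowed, when doublets were removed at 0.8% per 1000 cells, when both *Cdh5* and *Pecam1* were required, and when cells with stromal or epithelial genes were left out. Over all endothelial genes with at least 20 UMIs, the median log2 ratio was -0.00 and 7.32% of genes lay beyond 2-fold in either direction. Among the members, 7 of 10 reached 20 UMIs in that comparison and 2 lay beyond 2-fold, *Cxcl13* and *Glycam1*, both described below.

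Among EC classes, aerocytes, the alveolar capillary cells of gas exchange, held the highest *Ltbr* level, with 75.6 CPM in Control (interval 71.6 to 79.8) and 75.8 CPM in Dnmt1iECKO (interval 68.6 to 83.6). General capillary cells followed with 57.6 CPM and 55.5 CPM, venous ECs with 56.1 CPM and 60.3 CPM, and arterial ECs with 45.9 CPM and 40.8 CPM. Lymphatic ECs gave 39.7 CPM in Control and 51.6 CPM in Dnmt1iECKO on only 26 and 13 UMIs. In the order of classes, the interval of the ratio to the next class lay above 0 for aerocytes in both libraries, and general capillary and venous cells could not be ordered. Dnmt1iECKO over Control was 0.00 in aerocytes, -0.06 in general capillary, 0.10 in venous, -0.17 in arterial and 0.38 in lymphatic ECs. Each of these intervals held 0. In the ECs of no named class the log2 ratio was -0.32 (-0.54 to -0.10). Aerocytes were 1387 of 5268 Control and 427 of 2208 Dnmt1iECKO ECs. The part of this class mix in the ratio over all ECs was not tested. Outside the endothelium, fibroblasts held 35.9 CPM and 37.6 CPM, epithelial cells 36.4 CPM and 35.2 CPM, mesothelial cells 34.1 CPM and 43.9 CPM, and macrophages and monocytes 28.1 CPM and 32.2 CPM. Mural cells gave 49.1 CPM and 29.5 CPM, and neutrophils 35.6 CPM and 21.4 CPM, with intervals that overlapped between libraries in both classes. Dendritic cells were lower, at 10.5 CPM and 10.3 CPM. Lymphocytes held almost no receptor transcript. B cells gave 3.85 CPM and 1.22 CPM, T cells 1.85 CPM and 2.01 CPM, and NK cells 0 UMIs in Control and 1 UMI in Dnmt1iECKO.

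**Figure D2:**
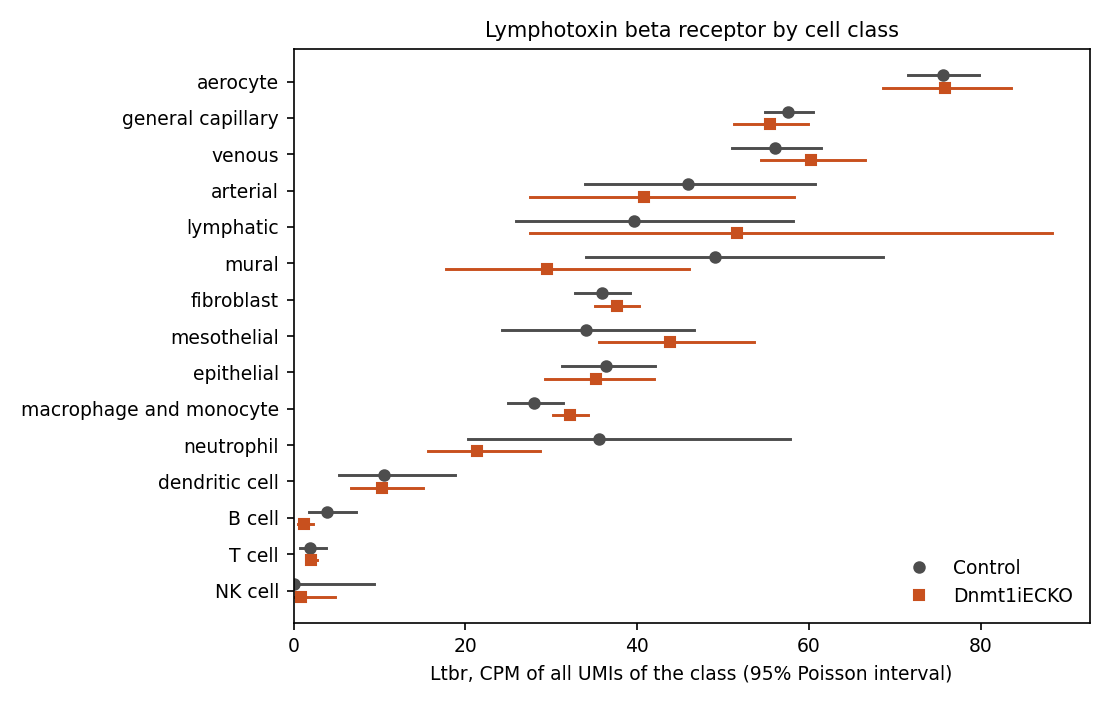
Lymphotoxin beta receptor level by cell class. The x axis is CPM of all UMIs of the class, circles are the Control library, squares are the Dnmt1iECKO library, and lines are 95% Poisson intervals for counting error. Aerocytes are at the right at 75.6 and 75.8 CPM, stromal, epithelial and macrophage classes are mostly between 28.1 and 49.1 CPM, and B, T and NK cells are below 4 CPM.

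Venous ECs and the rest of the blood endothelium held close levels of the receptor transcript. In Control, venous ECs had 460 UMIs and 56.1 CPM against 63.0 CPM in other blood ECs, a log2 ratio of -0.17 (-0.31 to -0.03). In Dnmt1iECKO, they had 395 UMIs and 60.3 CPM against 57.4 CPM, a log2 ratio of 0.07 (-0.09 to 0.23). When cells claimed by another lineage were kept, which made 5532 and 2403 ECs, these ratios were -0.13 (-0.27 to 0.01) and 0.18 (0.02 to 0.34), so whether the interval holds 0 depends on that step. In Control the interval also held 0 with *Ackr1* alone as the venous gene, without the cells with *Ppbp* or *Pf4*, and with median-of-ratios size factors. Within venous ECs the log2 ratio of Dnmt1iECKO over Control was 0.10 (-0.09 to 0.30). The share of venous cells with a UMI was 56.6% and 58.8%, against 43.5% and 42.6% of other blood ECs, and venous cells were deeper, with a median of 14832 and 13961 UMIs against 9606 and 9565. After each cell was thinned to 2000 UMIs, the shares were 9.55% and 9.28% in venous ECs and 11.2% and 11.2% in other blood ECs. The venous share was thus higher at full depth, and not at equal depth.

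The bases before the start of *Ltbr* are shown because its promoter was the richest in CpG among the members, and CpG is the site that DNMT1 methylates. DNA methylation was not measured here. The 300-base window around its start (250 before, 50 after; RefSeq, GRCm38.p6) held 23 CpG against a median of 7 over 32851 windows, and 21.5% of windows held at least as many. In the 250 bases before the start, on the minus strand at chr6:125313886-125314135, capitals mark CpG.

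Ltbr: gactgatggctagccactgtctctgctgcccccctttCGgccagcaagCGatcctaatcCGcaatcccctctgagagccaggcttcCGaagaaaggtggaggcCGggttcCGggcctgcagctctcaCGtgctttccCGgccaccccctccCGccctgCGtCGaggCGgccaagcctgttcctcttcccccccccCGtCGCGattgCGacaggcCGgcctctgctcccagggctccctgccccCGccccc

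The ligands were in lymphocytes. *Ltb* (chr17:35194439-35196320, plus strand), which encodes the subunit that anchors the complex in the membrane, had 1098 UMIs in 260 of 355 Control T cells and 3781 UMIs in 1008 of 1624 Dnmt1iECKO T cells. The level was 291 CPM in Control T cells (interval 273.9 to 308.6) and 205 CPM in Dnmt1iECKO T cells (interval 198.7 to 211.9), or -0.50 as a log2 ratio (-0.60 to -0.40). T cells with a UMI of the immature thymocyte genes *Rag1*, *Rag2*, *Dntt* or *Ptcra* numbered 2 in Control and 240 in Dnmt1iECKO, and without them the levels were 291 CPM and 241 CPM and the log2 ratio was -0.27. In T cells 13.1% of all genes lay beyond 2-fold, and of the 5 members with 20 UMIs only *Cxcl13* did. Relative to all T cell UMIs, *Ltb* was lower in Dnmt1iECKO in both settings, by less than 2-fold.

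In B cells the difference went the other way. *Ltb* had 364 UMIs in 124 of 204 Control B cells and 1620 UMIs in 446 of 691 Dnmt1iECKO B cells, at 156 CPM (interval 140.0 to 172.4) and 219 CPM (interval 208.9 to 230.4). The log2 ratio was 0.50 (0.33 to 0.66), but it was 0.15 when CPM was averaged over cells in place of summing UMIs. The share of B cells with a UMI was 60.8% (53.7 to 67.5) in Control and 64.5% (60.8 to 68.1) in Dnmt1iECKO, with overlapping intervals. In B cells 10.3% of genes lay beyond 2-fold, and of the 2 members with 20 UMIs *Lta* did and *Ltb* did not.

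Among the other leukocytes, neutrophils held *Ltb* at 114 CPM in Control and 79.9 CPM in Dnmt1iECKO, a log2 ratio of -0.51 (-0.97 to -0.02). Dendritic cells held 44.8 CPM and 53.3 CPM, and NK cells 40.5 CPM and 23.5 CPM. Macrophages and monocytes held 5.93 CPM and 7.65 CPM, in 7.30% and 9.50% of cells. As the reference for free RNA, epithelial cells, which should lack the gene, had a UMI in 2 of 252 Control cells and 8 of 139 Dnmt1iECKO cells, with median depths of 16718 and 21778 UMIs. *Ptprc* was detected in 3.57% and 10.8% of these epithelial cells, while ECs hold none by rule. The reference may thus hold leukocyte RNA as well as free RNA, here and for the genes below, which was not tested. Venous ECs held 1 UMI in Control and 3 UMIs in Dnmt1iECKO, as a whole class no more than that reference. All 3 of the latter were in 3 of the 46 venous ECs with *Ackr1* (6.52%, 1.37 to 17.9). That interval overlapped the one of Dnmt1iECKO epithelial cells (5.76%, 2.52 to 11.0). In Control, 0 of 17 venous ECs with *Ackr1* held a UMI. The reference cannot show where the venous UMIs came from.

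Lymphatic ECs were the exception in the endothelium. *Ltb* was detected in 11 of 38 Control cells (34 UMIs, 28.9%, 15.4 to 45.9) and in 5 of 16 Dnmt1iECKO cells (11 UMIs, 31.3%, 11.0 to 58.7). The levels were 51.9 CPM and 43.7 CPM, near those of dendritic cells. None of these 16 cells held a UMI of *Cd3e* or *Trac*, and none held a B cell marker. Any of 8 T cell markers was found in 5 of 11 and 2 of 5 of them, and in 5 of 27 and 4 of 11 of the lymphatic ECs without *Ltb*. Whether RNA from attached lymphocytes contributed was not tested.

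*Lta* (chr17:35203165-35205351, minus strand), the subunit that is also secreted as a homotrimer, was sparse. Control T cells held 28 UMIs in 24 cells and Dnmt1iECKO T cells held 189 UMIs in 111 cells, which is 6.76% and 6.84% of cells. In CPM this was 7.42 (4.93 to 10.7) and 10.3 (8.85 to 11.8), and the log2 ratio of 0.47 had an interval from -0.11 to 1.10. Without the T cells with a thymocyte gene, 28 and 188 UMIs gave 7.46 and 12.4 CPM. That log2 ratio was 0.73 (0.16 to 1.36), so whether the interval holds 0 depends on those cells. The shares of these T cells with a UMI were 6.80% (4.40 to 9.95) and 7.95% (6.58 to 9.50), which overlap. B cells held 12 UMIs in 12 cells and 80 UMIs in 59 cells, at 5.13 CPM and 10.8 CPM, a log2 ratio of 1.08 (0.20 to 2.09). The share of B cells with a UMI was 5.88% (3.08 to 10.1) and 8.54% (6.56 to 10.9), so the shares overlapped. ECs held 1 UMI in Control and 0 UMIs in Dnmt1iECKO, the latter allowing up to 0.136% of cells.

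Ligand transcripts per library differed more than the levels within lymphocytes, and the libraries also differed in their share of *Ptprc*+ cells. Over all filtered cells *Ltb* had 1854 UMIs (16.2 CPM) in Control and 6204 UMIs (47.0 CPM) in Dnmt1iECKO, and *Lta* had 47 UMIs and 280 UMIs. More lymphocytes in the tumor and more lymphocytes passing the sort cannot be told apart in these libraries.

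HEV scaffolds and enzymes were found in few venous cells. At least 1 UMI of *Madcam1*, *Glycam1*, *Chst4* or *Fut7* was found in 3 of 445 Control venous ECs (0.674%, 0.139 to 1.96) and 3 of 342 Dnmt1iECKO venous ECs (0.877%, 0.181 to 2.54). Other blood ECs gave 7 of 4699 cells (0.149%, 0.0599 to 0.307) and 3 of 1793 cells (0.167%, 0.0345 to 0.488). Epithelial cells, as the reference for free RNA, gave 0 of 252 cells (which allows up to 1.19%) and 2 of 139 cells (1.44%, 0.175 to 5.10). The intervals of the whole venous class thus overlapped those of other blood ECs in both libraries and that of epithelial cells in Dnmt1iECKO. The Control venous share was below the epithelial limit. Among venous ECs with *Ackr1*, 2 of 46 Dnmt1iECKO cells held a UMI (4.35%, 0.531 to 14.8), and that interval lay above the one of other blood ECs. These cells were deeper, with a median of 20201 UMIs. In Control, 0 of 17 such cells did, with an upper end of 19.5%. After thinning to 2000 UMIs, 0 of 440 Control and 1 of 334 Dnmt1iECKO venous cells held a UMI, against 2 of 4383 and 0 of 1638 other blood ECs. With the *Prox1* cells under 4 lymphatic markers returned to the blood ECs, the venous counts were 4 of 467 (0.857%) and 4 of 362 (1.1%). Over all ECs the counts were 11 of 5268 cells in Control and 7 of 2208 cells in Dnmt1iECKO, and 4 and 0 of those also held the mesothelial gene *Msln*.

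*Madcam1* (chr10:79664559-79668537, plus strand) had 1 UMI in 1 Control venous cell and 0 UMIs in Dnmt1iECKO venous cells, which allows up to 0.877% of them to hold a UMI. It had 11 UMIs and 13 UMIs over all filtered cells, and no class held more than 4 UMIs in a library. *Glycam1* (chr15:103562759-103565081, minus strand) had 0 UMIs in Control ECs, which allows up to 0.366 CPM in venous cells, and 20 UMIs in Dnmt1iECKO ECs, all in 1 venous cell. Elsewhere it had 2 UMIs in a Control macrophage, 3 UMIs in a Dnmt1iECKO dendritic cell and 1 UMI in an epithelial cell. *Fut7* (chr2:25423267-25426374, plus strand), the fucosyltransferase that completes selectin ligands, had 0 UMIs in Control venous ECs and 1 UMI in each of 2 Dnmt1iECKO venous ECs. Its transcripts lay mostly in macrophages and monocytes, with 28 UMIs in 7.03% of cells in Control and 60 UMIs in 4.62% in Dnmt1iECKO, and leukocytes are known to use the same enzyme for their own selectin ligands. *Chst4* (chr8:110029153-110039740, minus strand), the sulfotransferase of HEV glycans, was found in 9 of 24 Control and 11 of 38 Dnmt1iECKO mesothelial cells, with 32 of 53 and 83 of 92 of all its UMIs. All 20 of these cells held *Msln*, as did 1 of the 2 Control venous cells with *Chst4*, which held 96 UMIs of *Msln*.

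A lone Dnmt1iECKO venous cell carried several HEV genes together. Of 37261 UMIs it held 20 of *Glycam1*, 6 of *Chst4*, 1 of *Fut7*, 2 of *Ccl21a* and 0 of *Madcam1*. Its endothelial genes were clear, with 30 UMIs of *Cdh5* and 44 of *Pecam1*, and it held 53 UMIs of *Selp* and 6 of *Ackr1*, which had placed it in the class. It also held 5 UMIs of the sulfotransferase *Chst2*, 3 of the core-2 branching enzyme *Gcnt1*, 3 of the scaffold *Cd300lg* and 23 of *Enpp2*, which encodes autotaxin. In CPM its *Enpp2* was 617 against 48.1 over all Dnmt1iECKO venous ECs. *Msln*, *Ccl19*, *Cxcl13* and *Cxcl12* were at 0 in it, and it held 1 UMI of *Ltb*. Other listed genes went both ways against the class. Higher ones included *Birc3* at 671 against 197 CPM, *Nfkb2* at 134 against 52.2 CPM, *Sele* at 725 against 249 CPM and *Cd34* at 617 against 268 CPM. Lower ones included *Podxl* at 0 against 286 CPM, *Emcn* at 80.5 against 413 CPM and *Map3k14* at 26.8 against 70.9 CPM. *Vcam1* at 188 against 1074 CPM and *Icam1* at 429 against 1050.0 CPM were lower too. *Fut4* and *Sphk1* were at 0 too, but 1 UMI in this cell makes 26.8 CPM. The class held *Fut4* at 0.458, *Sphk1* at 2.75, *Ccl19* at 1.83 and *Cxcl13* at 1.68 CPM, so their zeros show no difference. The *Map3k14* value is 1 UMI. This cell was the only EC of either library with more than 1 of the 4 HEV genes, and it was singled out after its values were seen. The venous class thus held 1 such cell among 342 in Dnmt1iECKO and 0 among 445 in Control, and 0 of 445 allows a share of up to 0.674%, above the 0.292% that 1 of 342 makes.

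**Figure D3:**
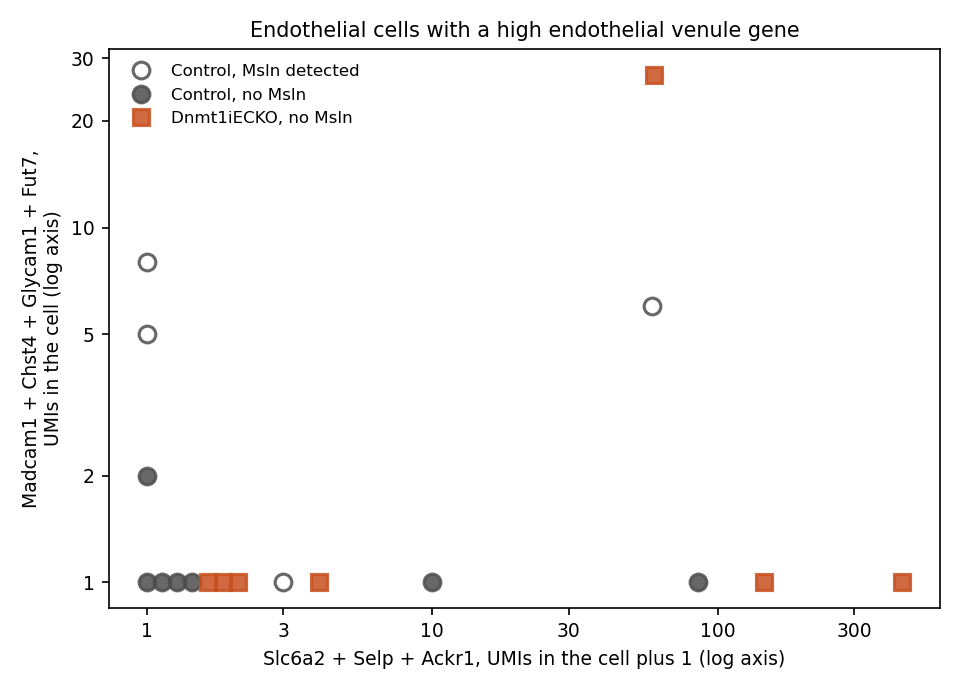
Endothelial cells with a UMI of *Madcam1*, *Chst4*, *Glycam1* or *Fut7*, 11 in Control and 7 in Dnmt1iECKO. The x axis is UMIs of the 3 venous genes plus 1 and the y axis is UMIs of the 4 HEV genes (both log axes); open circles are Control cells with *Msln*, filled circles Control cells without it, squares Dnmt1iECKO cells, and points at the same position are drawn side by side. The square at the top is the venous cell with 20 UMIs of *Glycam1*, and most other cells are at 1 UMI.

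The *Glycam1* promoter is shown beside that of *Ltbr* as its opposite in CpG content. The 300-base window at *Glycam1* held 0 CpG, and those of *Madcam1*, *Chst4* and *Fut7* (its first listed start) held 8, 5 and 8. The 250 bases before the *Glycam1* start are on the minus strand at chr15:103565082-103565331, in which no base is in capitals because no CpG occurs.

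Glycam1: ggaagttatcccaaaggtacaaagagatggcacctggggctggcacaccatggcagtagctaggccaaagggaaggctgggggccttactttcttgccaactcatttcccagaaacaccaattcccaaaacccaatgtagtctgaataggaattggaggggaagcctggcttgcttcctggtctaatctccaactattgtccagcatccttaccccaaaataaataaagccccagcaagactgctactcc

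The genes that surround these members in the pathway were read in venous over other blood ECs, where 11.0% of genes lay beyond 2-fold in Control and 12.3% in Dnmt1iECKO. Of the members, 4 reached 20 UMIs in each library. *Ccl19* lay beyond 2-fold in both, and *Glycam1* did in Dnmt1iECKO through the cell above. The 8 genes of the non-canonical NF-kB arm had 0 beyond 2-fold, with 5 higher in venous ECs in each library and a median log2 ratio of 0.30 and 0.30, against medians of -0.07 and -0.09 over all genes. *Map3k14*, which encodes the kinase NIK, had log2 ratios of 0.73 (0.58 to 0.88) and 0.72 (0.56 to 0.88), and *Birc3* had 0.89 and 0.82. *Relb* and *Nfkb2*, the transcription factor genes of the arm, had 0.47 and 0.45, and 0.38 and 0.23. These 4 genes were higher in venous ECs of both libraries, by less than 2-fold.

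Of the sialomucin scaffolds that blood vessels share with HEVs, *Cd34* and *Podxl* were slightly lower in venous ECs, at log2 ratios of -0.22 and -0.14 and of -0.30 and -0.12. *Emcn*, which encodes the venous and capillary sialomucin endomucin, was higher at 0.25 and 0.54. *Cd300lg*, known as nepmucin, was lower at -1.46 (-1.86 to -1.09) and -2.02 (-2.62 to -1.48). Among the 8 glycosylation genes, 5 reached 20 UMIs. *Chst2* was lower at -1.25 and -0.94, *B3gnt3* and the sialyltransferase *St3gal4* were higher at 0.31 and 0.59 and at 0.52 and 0.58, and *St3gal6* was at -0.06 and -0.12. *Gcnt1* was at -0.06 in Control, while in Dnmt1iECKO it held 5.19 CPM in venous and 10.4 CPM in other blood ECs. *Chst2* and *Cd300lg*, both known from HEVs, were thus lower in the venous class than in other blood ECs, while *Emcn*, *B3gnt3* and *St3gal4* were higher.

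Venule products of inflammation stood apart from that. Without *Selp* and *Ackr1*, which define the class, 2 of 6 genes in Control and 3 of 6 in Dnmt1iECKO were beyond 2-fold, all higher in venous ECs. The class rule picks cells by UMIs of *Slc6a2*, *Selp* or *Ackr1*. Genes that vary with these, here or in the NF-kB arm, may be raised by that choice, which was not tested. E-selectin (*Sele*) had log2 ratios of 3.93 and 3.47, *Vcam1* 3.87 and 4.22, and *Icam1* 0.85 and 1.24. *Enpp2*, abundant in lymph node HEVs, was lower at -0.56 and -0.46. The TNF receptor gene *Tnfrsf1b* was higher at 1.18 and 1.01, whereas the homeostatic chemokine *Cxcl12* was lower at -0.78 and -0.84.

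**Figure D4:**
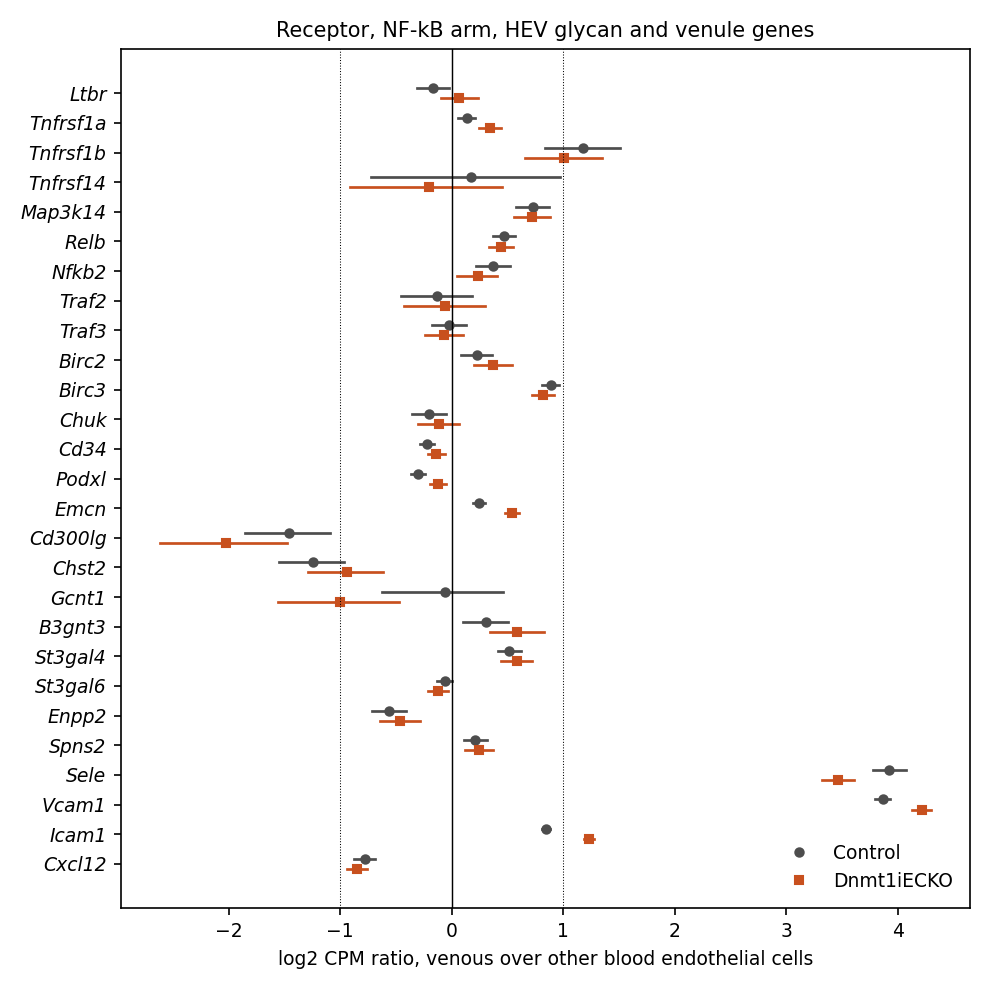
Receptor, NF-kB arm, HEV glycan and venule genes in venous over other blood ECs. The x axis is the log2 CPM ratio, circles are Control, squares are Dnmt1iECKO, lines are 95% intervals for counting error, the solid line marks equal levels and dotted lines mark 2-fold. *Sele* and *Vcam1* are at 3.47 to 4.22, *Ltbr* is near 0, and *Cd300lg* is the lowest at -1.46 and -2.02.

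Between the libraries, within venous ECs, 4.80% of genes lay beyond 2-fold. Of the members, 3 reached 20 UMIs and 1 lay beyond, *Glycam1*. The NF-kB arm had 0 of 8 beyond 2-fold with a median log2 ratio of 0.07, led by *Map3k14* at 0.35 (0.16 to 0.53) and *Relb* at 0.28 (0.15 to 0.41). *Sele* was at 0.73, *Vcam1* at 0.70 and *Cxcl12* at 0.48, while *Cd34* was at -0.16 and *Chst2* at 0.05. Among all ECs *Relb* and *Map3k14* were at 0.35 and 0.45, and the LIGHT receptor gene *Tnfrsf14* was at 1.28 (0.90 to 1.67). In the same comparison, 5 listed lymphocyte receptor genes reached 20 UMIs. Of these, 3 lay beyond 2-fold higher and 1 beyond 2-fold lower, against 7.32% of all genes in either direction. Whether leukocyte RNA contributed to the *Tnfrsf14* ratio was not tested. The second ligand of the lymphotoxin beta receptor, LIGHT (*Tnfsf14*), had too few UMIs in ECs for a ratio, and in T cells its level was 4.50 CPM and 4.40 CPM.

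The lymphocyte receptors that meet these signals were read in the T and B cells. T cells held the CCR7 transcript at 389 CPM in Control and 422 CPM in Dnmt1iECKO. *Itgb7*, the beta chain of the MAdCAM-1 receptor, was at 169 CPM and 122 CPM, a log2 ratio of -0.47. B cells held *Ccr7* at 469 CPM and 536 CPM and *Cxcr5* at 199 CPM and 249 CPM, log2 ratios of 0.19 and 0.32. None of these ratios reached 2-fold.

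*Ccl21a* (chr4:42772860-42773993, minus strand) was a gene of lymphatic ECs, not of venules. Lymphatic ECs held 10968 UMIs in 35 of 38 Control cells and 4140 UMIs in 15 of 16 Dnmt1iECKO cells. The levels were 16739 CPM and 16443 CPM, a log2 ratio of -0.03 (-0.08 to 0.03). In the wider class with *Prox1* and at least 1 more marker, the level was 4159 CPM and 2484 CPM, and over both libraries its log2 ratio to other ECs was 12.39 (12.03 to 12.78). ECs with at least 10 UMIs, a limit chosen after the values were seen, numbered 35 and 15. All held *Prox1*, and they held 99.5% and 99.6% of the endothelial UMIs of the gene.

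Venous ECs held 7 UMIs of *Ccl21a* in 7 of 445 Control cells (1.57%) and 3 UMIs in 2 of 342 Dnmt1iECKO cells (0.585%). Epithelial cells gave 1.98% and 1.44%, so the venous shares were below those of the epithelial reference. The log2 ratio between libraries in venous ECs, -0.90 (-3.48 to 1.23), rests on those 10 UMIs and had no direction that counting error allows. The mouse genome holds near-identical copies of the gene, and 428 of 781 windows of 90 bases in its transcript (54.8%) occur in another copy. The 9 other copies held 11 and 5 UMIs in all, and the level of *Ccl21a* is uncertain to the extent that reads fit several copies. The *Ccl21a* promoter is shown as that of a member held almost wholly by lymphatic ECs, with 5 CpG in the 300-base window. The 250 bases before its start are on the minus strand at chr4:42773992-42774241, with CpG in capitals.

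Ccl21a: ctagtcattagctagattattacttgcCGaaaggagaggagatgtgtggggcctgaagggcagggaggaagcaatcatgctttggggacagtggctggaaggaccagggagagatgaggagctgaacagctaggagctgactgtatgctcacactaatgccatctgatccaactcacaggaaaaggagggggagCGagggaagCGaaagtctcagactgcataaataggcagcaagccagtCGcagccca

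*Ccl19* (chr4:42754525-42756577, minus strand) was stromal. Fibroblasts held 137 UMIs in 44 of 376 Control cells and 508 UMIs in 101 of 578 Dnmt1iECKO cells, which is 11.7% (8.63 to 15.4) and 17.5% (14.5 to 20.8). The level was 10.1 CPM (8.51 to 12.0) against 22.4 CPM (20.5 to 24.5), and the log2 ratio was 1.15 (0.87 to 1.43). *Ptprc* was detected in 3.19% of Control and 10.6% of Dnmt1iECKO fibroblasts, and its part in this difference was not tested. Fibroblasts with at least 3 UMIs numbered 13 and 30 and held 70.8% and 82.1% of the UMIs, and the highest cell held 29 and 115. At equal depth the shares were 3.11% and 5.42%. In fibroblasts 4.72% of genes lay beyond 2-fold, and of the 3 members with 20 UMIs *Ccl19* and *Cxcl13* did. The genes most raised in the *Ccl19* fibroblasts over other fibroblasts were *Cxcl9*, *Lrfn5* and *Csmd1*. *Acta2* was in 46.2% and 66.7% of them against 28.9% and 27.7% of the rest.

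Mural cells held *Ccl19* at 114 CPM in Control (interval 90.4 to 142.2) and 168 CPM in Dnmt1iECKO (interval 137.5 to 202.4), with 79 UMIs in 15 of 62 cells and 108 UMIs in 19 of 53 cells. The log2 ratio was 0.55 (0.12 to 0.99), the same direction as in fibroblasts. In ECs the gene had 119 UMIs and 33 UMIs in all, a log2 ratio of -0.78 (-1.38 to -0.21). The log2 ratio of the shares of ECs with a UMI was 0.73, in the other direction. The 11 and 3 ECs with at least 3 UMIs held *Acta2* and *Myh11*, smooth muscle genes, in every cell, against *Acta2* in 2.17% and 3.49% of the other ECs. Venous ECs held 30 and 12 UMIs, each in 5 cells, which gave log2 ratios over other blood ECs of 1.34 (0.69 to 1.96) and 1.17 (-0.01 to 2.28). Whether these are droplets that hold a mural cell as well was not tested. Macrophages held 0 UMIs in Control and 24 UMIs in 18 of 1168 cells in Dnmt1iECKO. In that class 5.92% of genes lay beyond 2-fold, and *Ccl19* did among the 5 members with 20 UMIs.

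*Cxcl13* (chr5:95956951-95961068, plus strand) was made by few cells at high counts. Fibroblasts held 419 UMIs in 20 of 376 Control cells and 2518 UMIs in 49 of 578 Dnmt1iECKO cells, at 31.0 CPM and 111 CPM. The log2 ratio was 1.84 (1.69 to 2.00), but the 5 highest cells held 91.4% and 72.8% of the UMIs, so the interval understates the error. Fibroblasts with at least 10 UMIs numbered 5 (1.33%, 0.433 to 3.08) in Control and 15 (2.60%, 1.46 to 4.24) in Dnmt1iECKO, and these shares overlap. The highest cell held 195 and 874 UMIs. With doublets removed at 0.8% per 1000 cells, in place of 0.4%, the log2 ratio was 1.38, and with CPM averaged over cells it was 3.02. The genes most raised in these fibroblasts were the acute phase gene *Saa3*, *Dmkn* and *Sntg1*.

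Macrophages and monocytes held *Cxcl13* at 101 CPM in both libraries (100.8 and 100.7 CPM), from 1089 UMIs in 12 of 370 cells and 3001 UMIs in 53 of 1168 cells. The log2 ratio was -0.00 (-0.10 to 0.10). Cells with at least 10 UMIs numbered 6 and 24 and held 98.9% and 97.2% of the UMIs. *Timd4*, a marker of resident macrophages of serous cavities and lymphoid tissue, was in 3 of 6 and 13 of 24 of them, against 3.57% and 2.36% of the other cells of the class. Their leading genes over the rest were *Prg4*, *Fcna*, *Alox15*, *Saa3* and *Marco*, some of them known from resident macrophages. A UMI of any B cell marker was in 5 of 6 and 14 of 24 of them, and in 262 of 364 and 806 of 1144 of the other cells of the class.

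In ECs *Cxcl13* had 32 UMIs in Control and 68 UMIs in Dnmt1iECKO, in 0.399% and 1.77% of cells, a log2 ratio of 2.16 (1.53 to 2.82). No EC held more than 4 UMIs. Epithelial cells gave 0 of 252 and 4 of 139 cells (2.88%) and T cells 0.563% and 1.23%. Both of those reference classes also had the higher share in Dnmt1iECKO, where the endothelial share was between theirs. It was between theirs in Control as well. There, however, a single T cell held most of the 44 T cell UMIs, so the Control T cell share cannot stand for free RNA alone. Venous ECs held 3 UMIs and 11 UMIs. The *Cxcl13* promoter is shown as that of the member with the largest ratio in fibroblasts, with 3 CpG in the 300-base window. The 250 bases before its start are on the plus strand at chr5:95956689-95956938, with CpG in capitals.

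Cxcl13: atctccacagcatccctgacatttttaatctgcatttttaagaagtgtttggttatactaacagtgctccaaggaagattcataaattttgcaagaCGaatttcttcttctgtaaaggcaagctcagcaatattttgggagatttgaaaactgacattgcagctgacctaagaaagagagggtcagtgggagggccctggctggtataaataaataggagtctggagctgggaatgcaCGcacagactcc

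**Figure D5:**
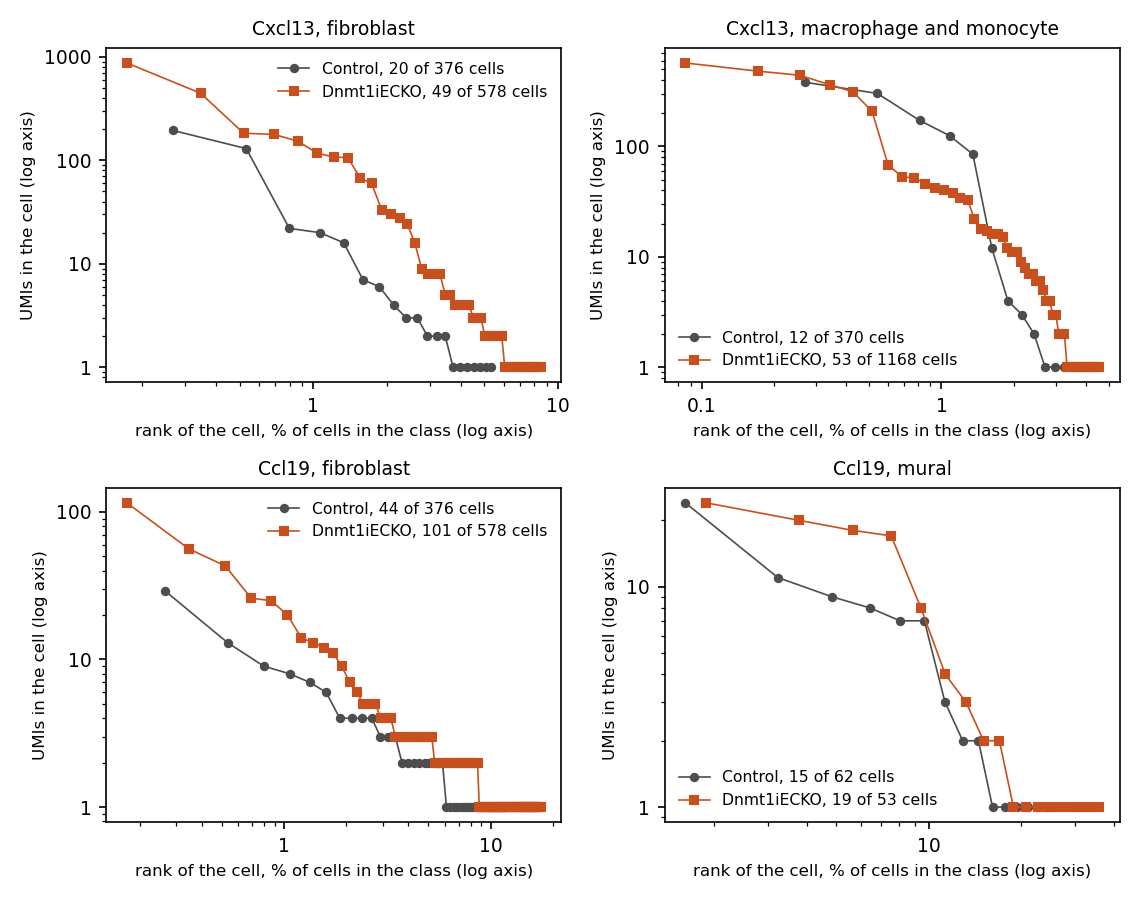
UMIs of *Cxcl13* and *Ccl19* per cell in the classes that hold them. The x axis is the rank of a cell from the highest, as percent of the cells of the class, and the y axis is its UMIs (both log axes); circles are Control and squares are Dnmt1iECKO, with the cells that held a UMI counted in each legend. Dnmt1iECKO fibroblasts are at or above Control fibroblasts at equal rank for both genes, up to 874 UMIs of *Cxcl13*, while the macrophage curves cross.

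The genes most like each member were sought over 34 class and library points by Pearson r of log2(CPM + 10). This is a description over points that share libraries. *Ltbr* was nearest to *Zfyve9* (0.96), *Dip2c* (0.94) and *Dock1* (0.93), *Ltb* to *Hsh2d* (0.95), *Ctse* (0.94) and *Stk17b* (0.91), and *Lta* to *Fam169b* (0.93), *Gm8369* (0.92) and *BE692007* (0.90). *Ccl21a* was nearest to *Apba2* (0.99), *Prox1* (0.99) and *Stab2* (0.97), *Ccl19* to *Dgkb* (0.98), *Tmem196* (0.98) and *Jph2* (0.97), and *Cxcl13* to *G530011O06Rik* (0.89), *Gm15726* (0.88) and *Pdgfc* (0.83). *Chst4* was nearest to *Lgals2*, *Lrrn4* and *Apol11b* (each 0.99), of which *Lrrn4* is a mesothelial marker, and *Fut7* to *Csf2rb2* (0.92), *Kcnh4* (0.91) and *Csf2rb* (0.90). *Madcam1* and *Glycam1* had under 100 UMIs and were not matched.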

How the data were processed

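UMI counts per gene and cell were deposited by the authors for 1 Control and 1 Dnmt1iECKO library, made with Cell Ranger 9.0.1 on mm10 with no normalization. Cells with over 10% mitochondrial counts or under 500 genes were removed, and the cells with the highest Scrublet scores (scanpy 1.11.5, 0.4% per 1000 cells, 257 and 263 cells) were removed as doublets. Classes were taken from marker lists by the rules given with the results. Counts were summed per class and library to CPM in Python 3.11.15 with numpy 2.4.6 and scipy 1.17.1. The log2 ratio and its interval were tested on simulated data with Poisson error only. Such data cannot show how the intervals do where few cells hold most UMIs, as for *Cxcl13* and *Glycam1*. No test was run, since each group is 1 library. Ratios are given for genes with at least 20 UMIs over both sides where they are counted, and 2-fold was the limit. Named genes were the 10 members, the genes of 7 pathway lists chosen for known roles, and the 3 genes nearest to each member; 1 listed lymphocyte gene is not reported here. The members and lists were chosen with earlier results of these data known. Alternatives in cell filters, class rules, normalization and depth were computed. Positions are from GENCODE vM21, and promoter sequences are from RefSeq (GRCm38.p6), with all 10 members matched. *Ccl21a* and *Ccl19* overlap *4930578G10Rik* on the opposite strand, and the 3′ kit keeps strand.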

Additional observations from a re-analysis of the deposited data

Results flagged for a closer look

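Between single cell classes with at least 20 UMIs, the log2 ratio of Dnmt1iECKO over Control lay on opposite sides of 0 for 3 members, with intervals that exclude 0. Pooled groups such as all ECs were left out of this count. In all ECs *Ccl19* was at -0.78 (-1.38 to -0.21), against 1.15 in fibroblasts. The difference between classes was not tested, since each condition is 1 library. *Ltbr* was at 0.20 in macrophages and monocytes and at -0.32 in the ECs of no named class. *Ltb* was at 0.50 in B cells, -0.50 in T cells and -0.51 in neutrophils. *Cxcl13* was at 2.60 in aerocytes, 2.07 in general capillary cells and 1.84 in fibroblasts, against -1.96 in mesothelial cells and -2.89 in T cells. In the last 2 classes a Control cell with 57 of 67 UMIs and another with 43 of 44 UMIs held most of the transcript, and the aerocyte and capillary values rest on at most 25 UMIs per library.

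Cells of no class, which the comparisons do not use, held 3 members at levels whose intervals were above those of epithelial cells. They held 159 UMIs of *Ltb* in Control and 198 in Dnmt1iECKO, 292 and 44 of *Ccl21a*, and 188 and 147 of *Cxcl13*. For *Ccl21a*, 287 and 41 of these UMIs were in 1 cell of each library. *Ltbr* had 346 and 370 UMIs in cells of no class, at 41.9 and 37.5 CPM, with intervals that overlapped those of epithelial cells.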

How the results depend on the processing

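Of 145 alternative values for 12 results, 135 were within the 95% interval of the value reported and 10 were outside it. The sign changed in 2 results whose interval held 0: *Ccl21a* in venous ECs (below), and *Ltbr* in venous over other blood ECs of Dnmt1iECKO, from 0.07 to -0.01 without cells with *Epcam*, *Cspg4* or *Myh11*. The log2 ratio of *Ccl21a* in lymphatic over other ECs was 13.73 with at least 4 of 5 markers. *Ccl21a* in venous ECs between libraries was 1.38 in cells with at least 2 of the 3 venous genes, from 1 and 3 UMIs, and -1.99 as a mean over cells, against -0.90. *Cxcl13* in fibroblasts was 1.38 with doublets at 0.8% per 1000 cells and 3.02 as a mean of CPM over cells. *Ltb* was 0.15 in B cells as a mean over cells and -0.27 in T cells without thymocyte genes. *Lta* in T cells without thymocyte genes was 0.73 (0.16 to 1.36), inside the interval reported, but with an interval that no longer held 0. The share of Control venous ECs with an HEV gene was 0% with at least 2 venous genes, 0% with *Ackr1* alone and 0% after thinning. With *Ackr1* alone it was 4.35% (0.531 to 14.8) in Dnmt1iECKO, from 2 of 46 cells, and no longer overlapped the interval of other blood ECs. Within their wide intervals these shares also moved by over 1.5 times, to 0.258% in Control without cells with *Ppbp* or *Pf4*, and in Dnmt1iECKO to 1.72% with at least 2 venous genes and 0.299% after thinning. The cause of these shifts was not tested, apart from the smaller number of cells. No ratio of *Ccl21a* in venous ECs could be had with *Ackr1* alone, where Control held 0 UMIs. No paired analysis was possible because each condition has 1 library, and for the same reason no replicate could be left out. Depth limits the HEV genes: by the limit of 3 counts, 0 UMIs in 445 or 342 venous cells allow shares of up to 0.674% and 0.877% of cells with a UMI.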
